A study of Mus musculus with 6 samples.

Results

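Leukemia cells from the bone marrow (BM) of mice with MLL-AF9-induced AML that received iron dextran (MA9/FE) were compared with leukemia cells of AML mice that received phosphate-buffered saline (PBS) in its place (MA9). The members described are the 10408 protein-coding genes that reached 1 FPKM in either library, out of 21995 protein-coding genes and 54532 genes in all. FPKM is a level per length of exon, scaled to the depth of the library. Of these members, 10088 reached an FPKM of 1 in both libraries, 157 in MA9 only and 163 in MA9/FE only. At the limit, Olfr543 (0.492 FPKM in MA9, and just over 1 in MA9/FE) and Cerkl (just over 1 FPKM and 0.890) were inside, while Cd79a (0.832 and 0.9996 FPKM) and Arhgef4 (0.866 and 0.9998 FPKM) were just outside.

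The series holds 6 libraries, 1 per group, and the other 4 are of macrophages. Both leukemia cell libraries come from the same model on a C57BL/6 background. In it, BM cells carrying c-kit were infected with a retrovirus (MSCV) that carries the MLL-AF9 fusion gene and GFP, and GFP+ AML cells from such mice were passed on to C57BL/6 recipients. The recipients were given repeated intraperitoneal injections of iron dextran (MA9/FE) or of an equal volume of PBS (MA9), so both groups carry the fusion gene, the GFP virus and the transplant and differ by the agent injected. The fusion gene is driven by a viral promoter, and the recipients keep their own blood cells. How many mice stand behind each library is not given in the sources used here. With 1 library per group, no difference below has a replicate check, and differences between single mice, days and cell collections cannot be told apart from iron dextran.

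MLL-AF9 is a fusion of a chromatin regulator with a part of the transcription elongation machinery. It keeps genes of the HOXA cluster and their partner Meis1 on in myeloid progenitors, which then grow as AML. Cells take up iron bound to transferrin through the transferrin receptor, store it in ferritin and export it through ferroportin. When iron is scarce, iron regulatory proteins bind hairpins called iron-responsive elements (IRE) in messenger RNAs, which protects the transferrin receptor mRNA from decay and blocks translation of ferritin and ferroportin. When iron is plentiful this binding is lost. A change in ferritin translation therefore need not appear in RNA levels.

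The depth recovered from the deposited values was 18157061 reads in MA9 and 17852024 in MA9/FE, and the members had a median of 819 and 806.5 reads. Hoxa9 (40.6 and 41.0 FPKM in MA9 and MA9/FE), Cd34 (35.3 and 36.2), Kit (11.3 and 10.8) and Mpo (775 and 744), markers of MLL-AF9 myeloid leukemia cells, were present in both libraries. Hoxa9, Cd34 and Mpo were lower in every macrophage library. Kit was higher there (16.2 to 26.8 FPKM), so it does not set the leukemia cells apart from the macrophages. Of 15 B cell genes 11 were under 1 FPKM in each library, and of 17 T and NK cell genes 15 were. Macrophage genes were mixed. C1qa (4.50 and 3.61 FPKM) and Mertk (0.241 and 0.245) were low, whereas Csf1r (66.6 and 70.7), Cd68 (100 and 107) and Adgre1 (28.6 and 27.5) were not. The 30 monocyte and macrophage genes summed to 1304 and 1368 FPKM, against 1053 to 1918 in the macrophage libraries. The Y-linked genes Ddx3y, Eif2s3y, Kdm5d and Uty were listed at 0 in all 6 libraries. Hemoglobin RNA, which belongs to red cell precursors, was present in both libraries and differed between them, as described below.

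The libraries were close to each other over most genes. Across the 10408 genes the correlation of log2(FPKM + 1) was 0.992, a description over genes that share 2 libraries, and 10120 genes (97.2%) differed by less than 0.5 on the log2(FPKM + 1) scale, with a median difference of 0.00024 and an SD over genes of 0.205. A fold of at least 2 on this scale was found in 25 genes that were higher in MA9/FE (0.24% of the genes compared) and in 31 that were lower (0.298%), 56 in all (0.538%). For the 9844 genes with whole reads in both libraries, a 95% counting interval of the ratio, which covers counting error only, lay above 1 in 1735 (17.6%) and below 1 in 1690 (17.2%). Folds given with an interval below are ratios of FPKM, and the interval is this counting interval. Counts of genes past a fold of 2 use log2(FPKM + 1), so at low levels a ratio can pass 2 in a gene that is not counted. Usp18 (4.01 and 1.85 FPKM) was 2.17-fold lower by its ratio (1.69 to 2.81), with a log2 difference of -0.81. The shares of 17.6% and 17.2% are the background against which the gene groups below are read. Whether an interval leaves out 1 depends on the number of reads as well as on the difference. Lists of abundant genes can therefore pass these shares at small differences. Top2a, a cell cycle gene with 11814 and 12336 reads, had an interval above 1 at 1.06-fold (1.04 to 1.09). In these bulk libraries, fewer cells of a type and less RNA per cell cannot be told apart. Of 47 gene lists, 15 had a median log2 difference of at least 0.1 in size. The medians of the 19 autosomes lay between -0.019 and 0.037, so that no autosome stood apart. The 10 genes with the highest mean FPKM were mt-Co1, Eef1a1, Rplp1, mt-Cytb, Ptma, Rplp0, Elane, mt-Nd1, Rps3a1 and Rpl36, and Elane, which encodes neutrophil elastase, differed most among them (1705 FPKM in MA9 and 1270.1 in MA9/FE, a log2 difference of -0.43).

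**Figure D1:**
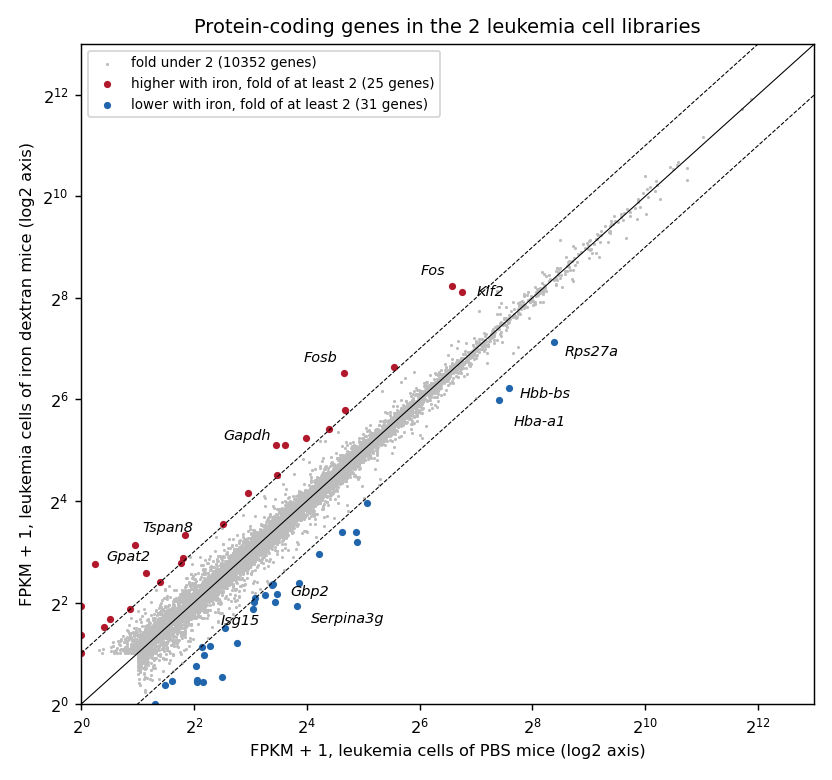
FPKM + 1 of each protein-coding gene in MA9 leukemia cells (x axis) and MA9/FE leukemia cells (y axis), both on log2 axes, 1 library each, with the line of equal levels (solid) and of a fold of 2 (dashed). Red and blue points are the 25 genes higher and the 31 genes lower in MA9/FE by a fold of at least 2, and the other 10352 genes lie within the dashed lines.

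Among genes of iron uptake and sensing, the transferrin receptor differed and the rest differed little. Tfrc (chr16:32608920-32632794, plus strand, GRCm38) was at 21.5 FPKM in MA9 and 11.7 in MA9/FE (2413 and 1292 reads), a log2 difference of -0.82 and 1.84-fold lower with iron (95% counting interval 1.72 to 1.97). Of the 10 members of this list (median -0.11), Tfrc had the largest difference. The genes of the sensors themselves, Ireb2 (10.1 and 11.03 FPKM) and Aco1 (10.5 and 9.48), of the importer Slc11a2 (3.92 and 3.49) and of the ferrireductase Steap3 (4.92 and 4.34) lay within 0.15 of 0 on the log2 scale. The heavy and light chains of ferritin were the most abundant iron genes. Fth1 was at 433 FPKM in MA9 and 506 in MA9/FE, and Ftl1 at 478 and 532, log2 differences of 0.22 and 0.16 (for Ftl1 1.11-fold, 95% counting interval 1.09 to 1.14). Slc40a1, which encodes ferroportin, was at 3.95 and 3.93 FPKM, and Hmox1, which encodes the heme oxygenase that frees iron from heme, at 13.02 and 14.2, both with counting intervals that hold 1. Neither these nor any other of the 11 members of the storage, export and heme breakdown list reached a fold of 2, and their median was 0.01. The siderophore-binding protein Lcn2, which is also a neutrophil granule protein, was lower in MA9/FE (45.7 and 32.5 FPKM). Lists of mitochondrial iron and iron-sulfur assembly (16 members, median -0.0049) and of BMP and hepcidin signaling (6 members, median 0.01) held no member with a fold of 2. In the second, Id2 was at 8.63 and 13.9 FPKM.

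The IRE hairpins of Tfrc are shown because it had the largest difference among the genes of iron uptake. In GENCODE M21 transcripts, a hairpin of an unpaired C, a stem of 5 bases (G-T pairs allowed) and a loop CAGTG followed by A, C or T was found in the 3′ UTR of 54 of 10391 genes (0.52%) and in the 5′ UTR of 12 (0.115%). Tfrc held 4 of them in the 3′ UTR, more than any other gene, and was the only gene with 3 or more. The stretches below, on the transcript strand, have the loop in capitals, and the single hairpins in the 5′ UTR of Fth1 and Ftl1, where binding acts on translation, follow for comparison.
Tfrc hairpin 1: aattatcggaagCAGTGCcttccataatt
Tfrc hairpin 2: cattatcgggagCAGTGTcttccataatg
Tfrc hairpin 3: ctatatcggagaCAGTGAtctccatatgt
Tfrc hairpin 4: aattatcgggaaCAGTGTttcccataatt
Fth1: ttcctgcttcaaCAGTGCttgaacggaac
Ftl1: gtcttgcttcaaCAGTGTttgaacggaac
Of the 54 genes with such a match in the 3′ UTR, Tfrc had the lowest log2 difference (-0.82), followed by Ptgs1 (-0.62), and the median over the 54 was 0.0061. Among the 12 genes with a match in the 5′ UTR the values ran from -1.90 (Serpina3g) to 0.44 (Ftl1-ps1), and Slc40a1 among them was at -0.0062. A match is a description of letters and structure, and binding was not measured here.

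Immediate early genes, which are transcribed within minutes of a stimulus and encode mostly transcription factors and phosphatases of MAP kinases, were higher in MA9/FE leukemia cells. Of the 37 members 31 were higher, the median log2 difference was 0.47, and 6 reached a fold of 2 upward and 0 downward. The counting interval lay above 1 in 26 of the 35 members with whole reads and below 1 in 3. Fos, a subunit of the AP-1 transcription factor, was at 94.7 FPKM in MA9 and 299.8 in MA9/FE, 3.16-fold higher (3.05 to 3.28). Its relative Fosb was at 24.4 and 91.4 FPKM, 3.74-fold higher (3.59 to 3.90). Fos rested on 4043 and 12586 reads and Fosb on 2766 and 10183, so counting error was small beside these differences. Klf2, a Kruppel-like transcription factor, was at 107 and 277 FPKM (2.58-fold, 2.48 to 2.68), and Klf4 of the same family at 24.6 and 54.5 (2.21-fold, 2.07 to 2.36). Dusp1, a phosphatase that switches off p38 and JNK, was at 45.5 and 98.6 FPKM, and Egr1, a zinc finger factor, at 10.2 and 21.9 (2.15-fold, 1.98 to 2.34). Grasp, a scaffold gene outside the list, was also higher (2.49 and 6.31 FPKM).

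Below a fold of 2 the same direction was seen in Nr4a1 (14.4 and 27.3 FPKM), Klf6 (39.4 and 70.7), Ppp1r15a (22.4 and 39.9), Atf3 (10.9 and 19.2), Rhob (165 and 281) and Jun (132 and 212). The members of the AP-1 families were not equal. Jund (58.6 and 92.3 FPKM, 0.65) and Jun (0.68) were nearer to Fos than Junb was (76.3 and 91.1 FPKM, 0.25), while Fosl2 (19.9 and 19.8 FPKM) was level and Fosl1 (1.87 and 1.08 FPKM) was lower. Gadd45b, a stress gene, was the lowest of the list at 22.5 and 14.5 FPKM (-0.60). Srf, whose product drives many of these genes, was at 64.0 and 57.0 FPKM. Without the members whose reads were not whole in both libraries, an alternative chosen after seeing the data, the median was 0.47 over 35 genes.

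The promoters of Fos and Fosb are shown because they led the immediate early genes. They are taken from the RefSeq promoter windows of GRCm38.p6, which run from 250 bases before to 50 bases after a gene's start. Capitals mark TGACG, the core of the cAMP response element, on either strand. This motif was chosen after these windows had been read, so its presence in them is no finding.
Fos, chr12:85473640-85473939, plus strand: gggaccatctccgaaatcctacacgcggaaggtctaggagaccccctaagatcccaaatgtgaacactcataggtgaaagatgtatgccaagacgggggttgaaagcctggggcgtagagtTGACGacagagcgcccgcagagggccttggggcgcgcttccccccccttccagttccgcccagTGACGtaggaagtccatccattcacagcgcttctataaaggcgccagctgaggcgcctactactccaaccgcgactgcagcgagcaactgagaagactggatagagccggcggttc
Fosb, chr7:19309996-19310295, minus strand: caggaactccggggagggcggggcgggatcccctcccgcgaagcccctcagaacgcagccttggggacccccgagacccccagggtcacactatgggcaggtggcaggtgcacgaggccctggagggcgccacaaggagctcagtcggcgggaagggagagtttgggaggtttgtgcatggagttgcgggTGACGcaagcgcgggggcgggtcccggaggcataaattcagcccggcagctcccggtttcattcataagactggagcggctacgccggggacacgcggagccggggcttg
Of 32851 windows 20.8% held TGACG on at least one strand, and so did 36.7% of the 8301 genes of the comparison with a window. Among the immediate early genes 20 of 32 with a window held it, with a median log2 difference of 0.47 against 0.39 in the 12 without. Of the genes higher by a fold of 2, 7 of 17 with a window held it (41.2%), near the share in the comparison. The full element TGACGTCA (1.79% of all windows and 3.69% in the comparison) was in 4 of the 32, the AP-1 motif TGANTCA (7.81% and 5.70%) in 2 and the CArG box of the serum response factor (1.63% and 1.52%) in 4. MHC class I genes, which were lower in MA9/FE, held TGACG in 9 of 16 windows.

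Histone genes, most of them from the clusters that are transcribed in S phase into mRNAs without poly(A) tails, were higher as well. Of 44 members 34 were higher, with a median of 0.44, 3 with a fold of 2, and counting intervals above 1 in 21 and below 1 in 0. Hist1h2bg was at 9.98 FPKM in MA9 and 33.3 in MA9/FE (3.33-fold, 2.69 to 4.15), and Hist1h3d at 1.63 and 4.31 (2.64-fold, 1.79 to 3.97). Hist1h2bl rested on 3 and 15 reads (1.44 to 27.4). The more abundant H1f0 (52.3 and 84.9 FPKM) and Hist1h1c (50.0 and 80.1), which encode linker histones, were also higher, and H3f3a was level (123 and 123). Many of these genes are near-identical, and reads could be split between them. Summed with its copies of at least 97% identity, Hist1h2bg was 2.08-fold higher, Hist1h2bl 1.95-fold and Hist1h3d 1.58-fold. The 53 genes of the cell cycle and mitosis had a median of 0.03 and none with a fold of 2, but went both ways, with counting intervals above 1 in 23 and below 1 in 14 of 51. Mki67 was at 68.5 and 73.4 FPKM and Pcna at 166 and 169.8. At the lower end were Cdc25a (-0.38), E2f1 (-0.25) and the replication helicase subunit Mcm4 (-0.17), and at the higher end the mitotic genes Ccnb1 (0.30), Nusap1 (0.27) and Plk1 (0.23). How RNA was selected for sequencing is not given in the sources used here.

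**Figure D2:**
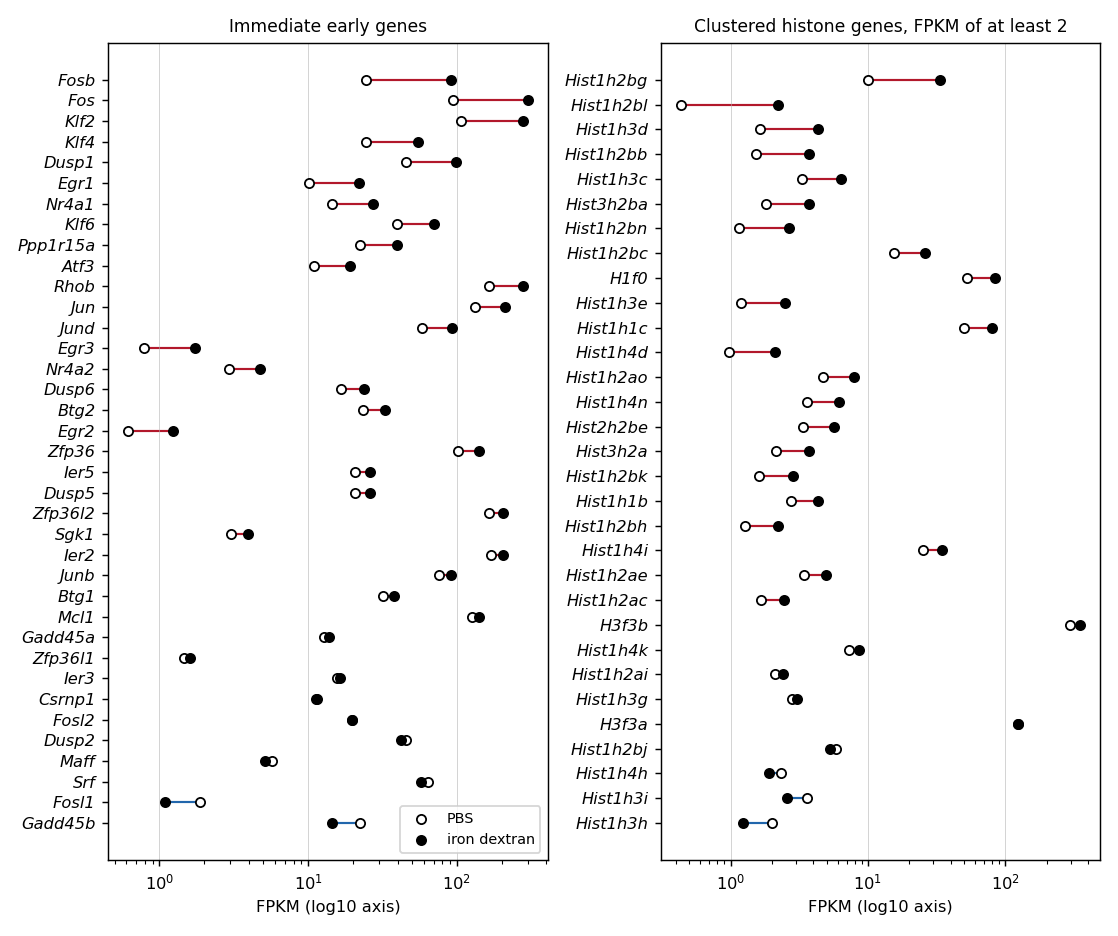
FPKM (log10 axis) in MA9 (open circles, PBS) and MA9/FE (filled circles, iron dextran) leukemia cells, 1 library each, of the 37 immediate early genes (left) and of the histone genes that reached 2 FPKM in either library (right), sorted by their log2 difference. Red lines mark genes higher and blue lines genes lower in MA9/FE; 31 of the 37 immediate early genes were higher, Fosb and Fos most.

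Genes of the type I interferon response, which encode antiviral sensors and effectors, were lower in MA9/FE leukemia cells. Of 45 members 41 were lower, the median log2 difference was -0.42, and 6 were lower by a fold of at least 2 and 0 higher. The counting interval lay below 1 in 38 of 45 and above 1 in 1. Isg15, a ubiquitin-like modifier, was at 9.76 FPKM in MA9 and 3.04 in MA9/FE (134 and 41 reads), 3.21-fold lower (2.25 to 4.68). Oas2, a sensor of double-stranded RNA, was at 9.44 and 4.10 FPKM (2.30-fold lower, 2.02 to 2.63), and its relative Oasl2 at 3.87 and 1.21 (3.19-fold, 2.63 to 3.89). Zbp1, a sensor of Z-form nucleic acid, was at 7.35 and 3.02 FPKM (2.44-fold, 2.06 to 2.90). Rtp4 was at 3.51 and 0.946 FPKM (3.72-fold, 2.56 to 5.53). Oas1g (5.79 and 1.32 FPKM) shares near-identical sequence with Oas1a (25.1 and 14.2 FPKM), and the 2 genes summed gave a ratio of 0.491. The levels were low to moderate throughout, and the members with the highest levels, Bst2 (82.6 and 66.8 FPKM) and Ifi27l2a (64.6 and 36.7), were likewise lower. The transcription factors of the pathway were lower too, with Stat2 at 15.4 and 11.8 FPKM, Irf9 at 16.5 and 12.1 and Irf7 at 9.77 and 7.18. The 4 members that were higher, Mndal, Ifi203, Ifi209 and Slfn1, reached at most 0.27 (Mndal, 27.0 and 32.8 FPKM).

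The GTPases of the IRG and GBP families, which attack vacuoles of intracellular pathogens and are induced mainly by interferon gamma, were lower in all 10 members of the comparison (median -0.73), each with a counting interval below 1. Tgtp2 was at 3.13 and 0.343 FPKM (167 and 18 reads, 9.13-fold lower, 5.60 to 15.8), and Gbp2 at 10.1 and 3.47 (2.92-fold lower, 2.43 to 3.52). Gbp5, Igtp and Ifi47 had log2 differences of -0.98, -0.88 and -0.74, while Gbp3, the most abundant, was at 25.9 and 22.6 FPKM (-0.19). Summed with its 2 copies Tgtp2 had a ratio of 0.154.

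The promoters of Isg15 and Gbp2 are shown because these genes are among the lowest of both interferon groups that RefSeq windows cover. Capitals mark the interferon-stimulated response element (ISRE), searched as GAAA, any 2 bases and GAAA again, and the AP-1 motif TGANTCA, on either strand, and the 3 matches in Isg15 overlap.
Isg15, chr4:156200769-156201068, minus strand: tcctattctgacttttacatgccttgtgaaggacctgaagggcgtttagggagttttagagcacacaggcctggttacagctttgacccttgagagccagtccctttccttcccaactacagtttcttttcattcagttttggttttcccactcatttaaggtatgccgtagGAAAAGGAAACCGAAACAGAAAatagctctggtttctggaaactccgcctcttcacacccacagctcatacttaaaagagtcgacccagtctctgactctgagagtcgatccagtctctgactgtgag
Gbp2, chr3:142620413-142620712, plus strand: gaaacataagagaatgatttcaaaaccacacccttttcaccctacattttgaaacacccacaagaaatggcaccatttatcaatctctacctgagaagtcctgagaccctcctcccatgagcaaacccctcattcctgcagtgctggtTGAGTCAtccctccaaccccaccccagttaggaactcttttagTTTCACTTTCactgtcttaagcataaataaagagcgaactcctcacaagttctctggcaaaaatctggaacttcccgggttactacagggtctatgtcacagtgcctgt
The ISRE was in 3.44% of all 32851 windows and in 3.85% of the 8301 genes of the comparison with a window. It was in 18 of 34 type I interferon genes (52.9%), in 8 of 9 IRG and GBP genes (88.9%) and in 5 of 16 MHC class I genes. Over the whole comparison the motif went with little difference. The 320 genes of the comparison that held it had a median log2 difference of -0.014, with 174 below 0 and 4 lower by a fold of 2, against a median of -0.0018 in the 7981 genes without it. Within the type I interferon list the medians were -0.45 in the 18 with and -0.36 in the 16 without the motif. The AP-1 motif was in 9 of 34 type I interferon genes and 2 of 9 IRG and GBP genes, against 5.70% in the comparison. A further motif, TTCNNNGAA (named GAS), was in 6 of 34 and 5 of 9, against 8.23%.

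Genes of MHC class I presentation, whose products load peptides for CD8+ T cells, were lower in 20 of 20 members by a small amount (median -0.32, from -0.63 to -0.21), and 0 reached a fold of 2. All 16 members with whole reads had counting intervals below 1. The list holds the most abundant genes of the interferon groups. B2m, the shared light chain, was at 1232 FPKM in MA9 and 992 in MA9/FE (0.805 of the MA9 level, 0.788 to 0.823). H2-K1 was at 578 and 445 FPKM, H2-D1 at 647 and 549 and the peptide transporter Tap1 at 56.9 and 41.9. Nlrc5, the transactivator of these genes, was at 11.7 and 7.21 FPKM. The class I genes are close relatives, so reads may be split between them, but all members lay on 1 side. The 10 MHC class II genes went both ways (median 0.03, 5 higher and 5 lower), from H2-DMa (59.1 and 49.1 FPKM, -0.26) to H2-DMb1 (37.9 and 43.9, 0.21), with Cd74 at 94.7 and 105 FPKM.

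The receptors that pass on interferon signals were level or slightly higher. Ifnar1 was at 22.3 and 22.5 FPKM, Ifnar2 at 45.4 and 48.7 and Ifngr1 at 124 and 146 (0.24, ratio 1.18, 1.14 to 1.22). The 15 members of the list had a median of 0.01, with counting intervals above 1 in 6 and below 1 in 2. Irf1, a factor induced by interferon gamma, was the lowest of them (30.6 and 18.7 FPKM, -0.68), and Irf8, a factor of monocyte development, was higher (89.4 and 116). Chemokine ligands went both ways. The interferon-induced Cxcl9 (1.06 and 0.297 FPKM) and Cxcl10 (1.96 and 0.746) were lower, and so were Ccl5 (1.205 and 0.175) and Cxcl2 (5.94 and 2.87), whereas Ccl2 (2.81 and 6.50), Ccl6 (10.4 and 21.3) and Ccl3 (173 and 238) were higher. The 18 NF-kB target genes had a median of -0.078 with no fold of 2.

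**Figure D3:**
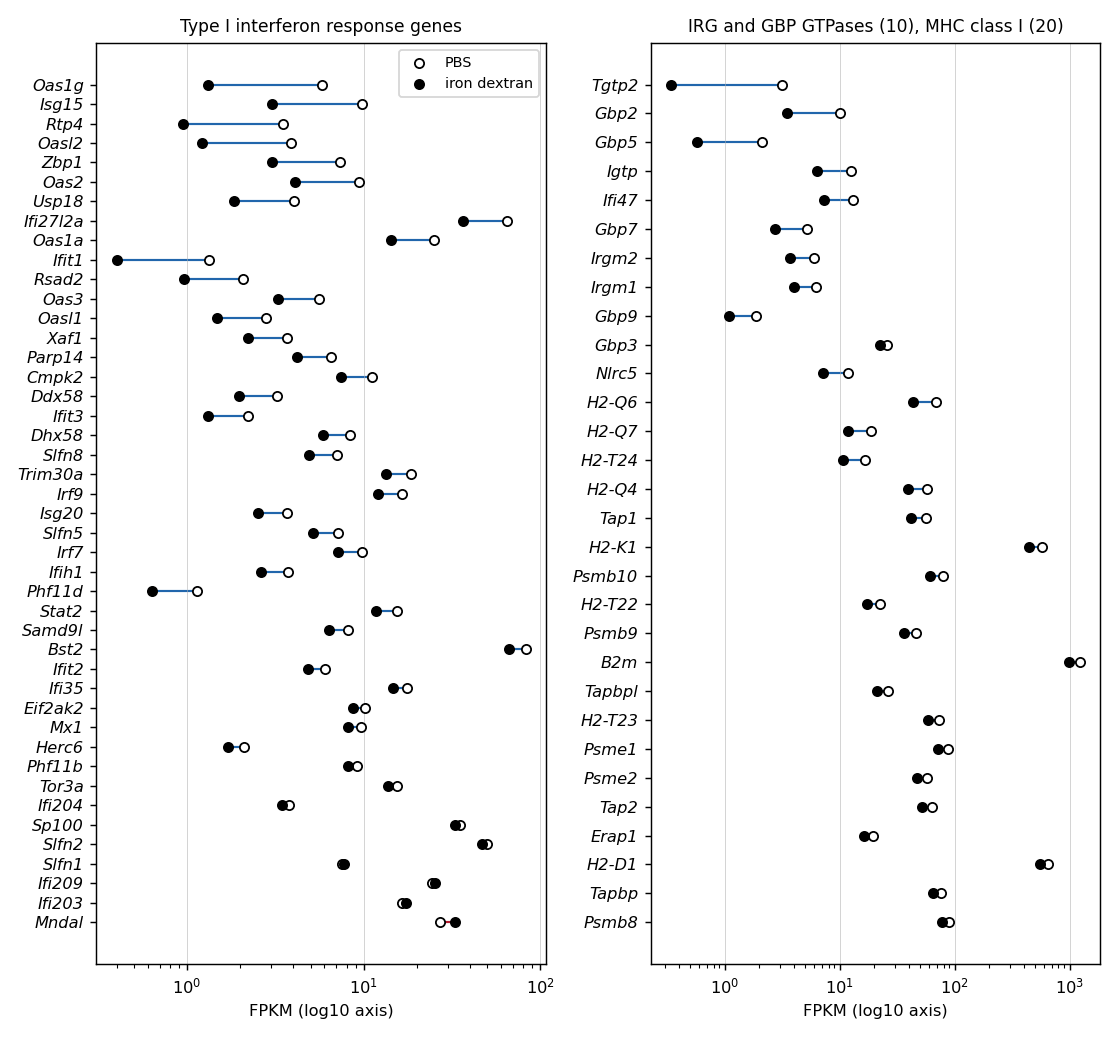
FPKM (log10 axis) in MA9 (open circles, PBS) and MA9/FE (filled circles, iron dextran) leukemia cells, 1 library each, of type I interferon response genes (left) and of 10 IRG and GBP GTPases above 20 MHC class I presentation genes (right), each group sorted by the log2 difference. Blue lines mark genes lower and red lines genes higher in MA9/FE; all 30 genes on the right and all but 4 on the left were lower.

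A pair of serine protease inhibitors of chromosome 12 stood near the bottom of the comparison. Serpina3g, which inhibits cathepsins in activated blood cells, was at 13.2 FPKM in MA9 and 2.79 in MA9/FE (503 and 105 reads), 4.71-fold lower (3.81 to 5.87). Its neighbor Serpina3f was at 4.64 and 0.440 FPKM (193 and 18 reads), 10.5-fold lower (6.50 to 18.2). The genes share near-identical sequence, and summed they gave a ratio of 0.18. Serpinf1, by contrast, was higher at 4.74 and 10.6 FPKM (2.24-fold, 1.89 to 2.66).

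Genes of the neutrophil's secondary granules and S100 proteins, made late in granulocyte maturation, were lower in 18 of 22 members (median -0.34), with counting intervals below 1 in 15 of 21 and above 1 in 4, and 0 members with a fold of 2. S100a8 was at 805 FPKM in MA9 and 582 in MA9/FE, S100a9 at 1029 and 805 and the granule protein Ngp at 418 and 320.3. Retnlg (25.4 and 13.04 FPKM), Mmp9 (13.3 and 7.95) and Padi4 (19.5 and 12.1) differed more. Lyz2, a lysozyme of neutrophils and monocytes alike, was instead higher (1017 and 1348 FPKM, 1.33-fold, 1.30 to 1.35), and so was Chil3 (169.5 and 226). The azurophil granule genes of earlier stages were less shifted (10 members, median -0.12), with Mpo at 775 and 744 FPKM, Prtn3 at 927 and 746 and Ctsg at 1091 and 1154. The granulocyte regulators Cebpe (78.5 and 56.5 FPKM) and Gfi1 (57.1 and 44.9) were lower too.

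Eosinophil genes and stefin A genes, lists that were added after the values had been seen, were lower in 7 of 7 members each (medians -0.96 and -0.45). Siglecf, a surface lectin of eosinophils, was at 17.6 FPKM in MA9 and 6.77 in MA9/FE (2.61-fold lower, 2.30 to 2.97). The eosinophil ribonucleases Ear1 (3.17 and 0.384 FPKM) and Ear6 (1.81 and 0.296) rested on 42 and 5 and on 31 and 5 reads, and the granule gene Prg2 was at 31.5 and 15.7 FPKM. The summed level of the 9 eosinophil genes was 75.3 FPKM in MA9 and 36.1 in MA9/FE, and none of them was at 0 in either library. Stfa3, which encodes a cysteine protease inhibitor of the stefin A cluster on chromosome 16, was at 13.5 and 4.21 FPKM (3.20-fold lower, 2.12 to 4.96), and its abundant neighbor Stfa1 at 127 and 64.1. 2010005H15Rik of the same cluster (7.498 and 3.24 FPKM) had a ratio of 0.725 when summed with its copy Gm5483. The 5 members of the basophil and mast cell list went both ways (median 0.48, 3 higher and 2 lower). The proteases Prss34 (2.58 and 9.03 FPKM) and Mcpt8 (15.6 and 22.1) and the receptor subunit Ms4a2 (1.10 and 2.05) were higher, Hdc, the enzyme of histamine synthesis, was lower (21.9 and 17.6), and Cpa3 was at 21.9 and 20.97.

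Monocyte and macrophage genes had a median of 0.03 over 24 members with no fold of 2, and 13 were higher and 11 lower, with counting intervals above 1 in 9 and below 1 in 5 of 22. Among the higher ones, F13a1, a coagulation factor subunit made by monocytes, was at 93.2 FPKM in MA9 and 133 in MA9/FE (1.42-fold, 1.39 to 1.46), the chemokine receptors Cx3cr1 at 18.4 and 26.4 and Ccr2 at 25.2 and 33.2, and Cd14 at 17.8 and 24.2. Among the lower ones, the complement gene C1qb was at 5.97 and 3.35 FPKM, Fcgr4 at 8.51 and 5.44, Vcam1 at 10.4 and 8.95 and Adgre1 at 28.6 and 27.5. These genes are named after their values had been seen. The high-level monocyte gene Ly6c2 was at 524 and 499.7 FPKM.

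Hemoglobin and other erythroid genes were lower, in 7 of the 9 members of the comparison (median -1.04), with 5 of them by a fold of at least 2. Hba-a1 was at 169 FPKM in MA9 and 62.1 in MA9/FE (2491 and 900 reads, 2.72-fold lower, 2.52 to 2.94) and Hbb-bs at 189.9 and 74.3 (2.56-fold lower, 2.38 to 2.75). Their relatives Hba-a2 (28.6 and 8.15 FPKM) and Hbb-bt (32.6 and 14.6) and the erythroid heme enzyme Alas2 (4.84 and 1.84) were lower as well. Alas2 carries an IRE match in its 5′ UTR, and summed with Apex2, with which it shares sequence, it had a ratio of 0.667. Over the whole list of 16 genes the summed level was 432.9 FPKM in MA9 and 167 in MA9/FE. Of the 16 genes 9 were under 1 FPKM in MA9 and 7 in MA9/FE, and none was at 0. The members that were higher in MA9/FE were Klf1 and Car1. Klf1 was at 0.756 and 1.10 FPKM, with a counting interval that holds 1. Car1 was at 0.485 and 1.35 FPKM (11 and 30 reads, 2.77-fold, 1.35 to 6.13). The part of red cell precursors among the collected cells in these values was not tested. The 12 enzymes and transporters of heme synthesis had a median of -0.0021, and Alas1, which serves non-erythroid cells, was at 70.7 and 54.6 FPKM.

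**Figure D4:**
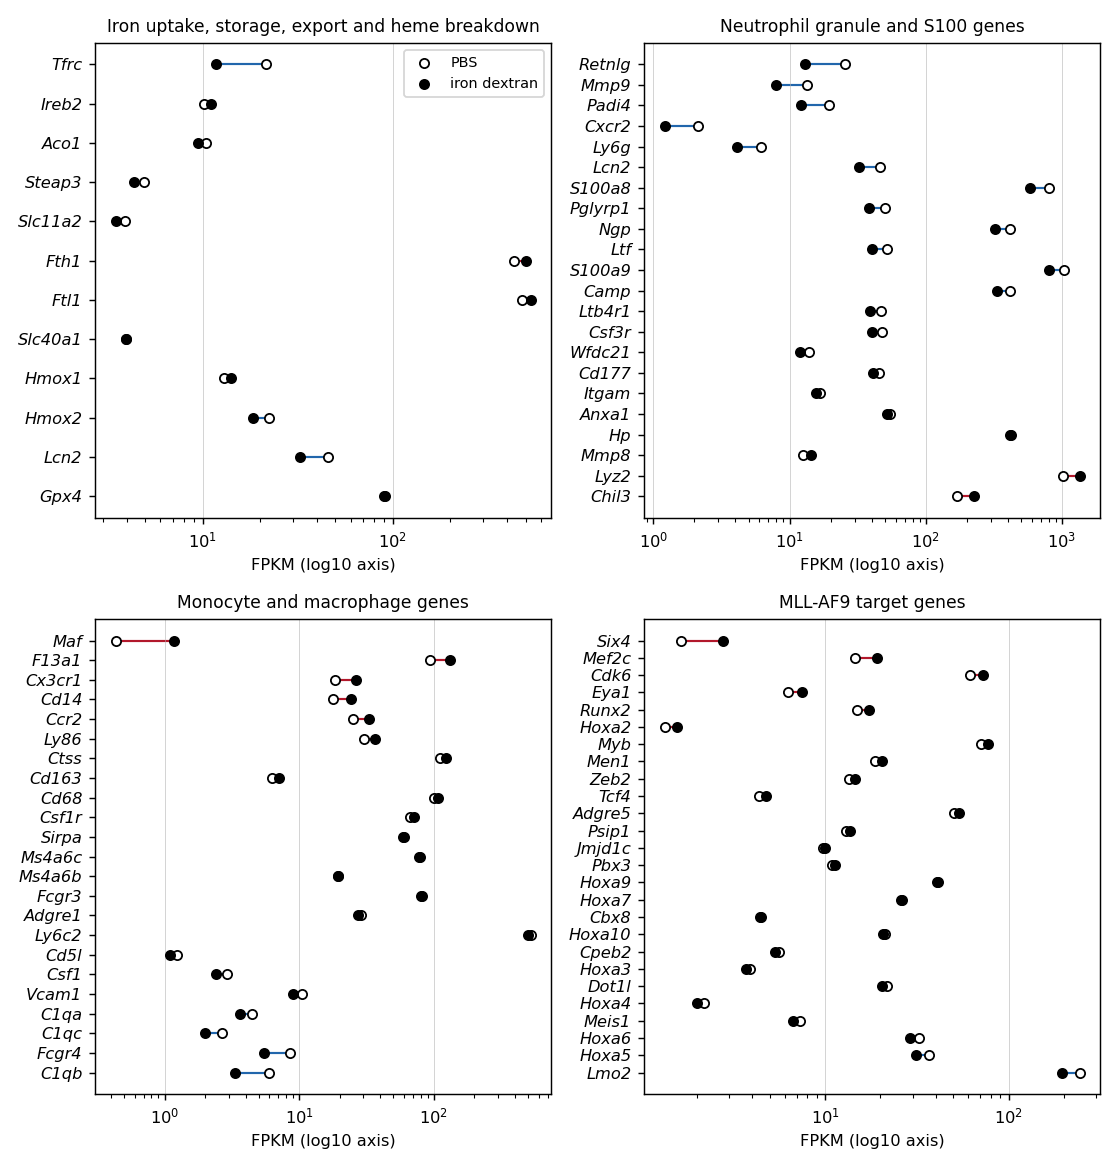
FPKM (log10 axis) in MA9 (open circles, PBS) and MA9/FE (filled circles, iron dextran) leukemia cells, 1 library each, of selected iron genes, neutrophil granule and S100 genes, monocyte and macrophage genes and MLL-AF9 target genes. Red and blue lines mark genes higher and lower in MA9/FE; Tfrc was at 21.5 FPKM in MA9 and 11.7 in MA9/FE, Slc40a1 and Hoxa9 were level, and S100a8 and S100a9 were lower.

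The program of the fusion gene was close to equal in both libraries. The 27 MLL-AF9 target genes had a median of 0.04 with none at a fold of 2. Hoxa9 was at 40.6 FPKM in MA9 and 41.0 in MA9/FE, a ratio of 1.01 (0.966 to 1.05). Meis1 was at 7.27 and 6.66 FPKM, Hoxa10 at 21.2 and 20.6, Myb at 70.6 and 77.0 and Cdk6 at 61.3 and 72.2. The outermost members were Six4 (1.64 and 2.78 FPKM, 0.51) and Lmo2 (244 and 194 FPKM, -0.33), with Mef2c (14.5 and 19.1) also on the higher side. Stem and progenitor genes had a median of -0.062 over 22 members and again none at a fold of 2. Kit was at 11.3 and 10.8 FPKM, Cd34 at 35.3 and 36.2 and the growth factor receptor Flt3 at 12.7 and 21.99 (1.73-fold, 1.62 to 1.85), the highest of the list. Itgam, which encodes CD11b, was at 16.8 and 15.7 FPKM.

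Genes that answer oxidative damage, a form of stress that free iron can cause, were close to equal. The 26 NRF2 and antioxidant genes had a median of -0.014 and ranged from -0.37 to 0.27, with Gpx1 at 1065 and 1012 FPKM and Gsr at 214 and 239. The 14 ferroptosis genes had a median of -0.033, and Gpx4, which removes lipid peroxides, was at 90.0 and 91.3 FPKM. No member of either list reached a fold of 2. The heat shock list had a median of -0.023, with Hspa1a at 0.817 and 2.68 FPKM (3.28-fold, 2.32 to 4.71) beside a level Hsp90ab1 (764 and 774). Of the 22 members 7 were higher. Summed with its twin Hspa1b the ratio of Hspa1a was 2.51. Nuclear genes of the respiratory chain (77 members, median -0.0047), the proteasome (38 members, -0.025), lysosome and autophagy genes (34 members, 0.0070) and genes of the unfolded protein response (24 members, 0.0091) held no member with a fold of 2. The same was true of the p53 targets (18 members, 0.038), apoptosis regulators (22 members, -0.074) and cytokine receptors (20 members, 0.086).

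A few genes outside these groups differed strongly. Gpat2, a glycerol-3-phosphate acyltransferase known from germ cells (chr2:127425199-127436092, plus strand, GRCm38), had the largest difference of the comparison, at 0.189 FPKM in MA9 and 5.73 in MA9/FE (9 and 269 reads, 30.4-fold higher, 15.8 to 67.2). Tdrd9, a helicase of the germline piRNA pathway, was also higher (2.39 and 5.83 FPKM, 2.44-fold, 2.09 to 2.85), whereas Xlr, an X-linked lymphocyte-regulated gene, was lower (3.47 and 0.360 FPKM, 9.64-fold, 5.66 to 17.7). The tetraspanin Tspan8 (chr10:115816832-115849893, plus strand) was at 0.938 and 7.80 FPKM (29 and 237 reads, 8.31-fold higher, 5.64 to 12.7). The 24 cholesterol and lipid genes had a median of 0.04. Rbp4, the retinol carrier of plasma, was at 14.8 and 36.9 FPKM. Sln, which encodes the calcium pump regulator sarcolipin, was listed at 0 in MA9 and had 66 reads in MA9/FE. With MA9 set to a floor of 3 reads Sln was 22.4-fold higher, and the lower limit of its counting interval was 17.7. In the other direction Cyp2a5 had 56 reads in MA9 and 0 in MA9/FE, 18.4-fold lower by the same floor (lower limit 14.4). Summed with its near-identical copy it had a ratio of 0.0877. Msgn1 had 0 and 11 reads (3.73-fold higher by the same floor, lower limit 2.55), and Ms4a4a 5 and 28 reads.

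Further genes were lower by a fold of at least 2. Lgals3bp, a secreted glycoprotein, was at 23.7 FPKM in MA9 and 9.54 in MA9/FE (2.48-fold lower, 2.23 to 2.76). Thbs1, which encodes thrombospondin, a ligand of CD47, was at 8.62 and 3.43 FPKM (2.51-fold lower, 2.23 to 2.84), and Cd47 itself at 108 and 117. The other 16 members of the checkpoint and costimulatory list stayed under a fold of 2 (median of all 17 members -0.0068), among them Cd274 (2.93 and 2.64 FPKM), Lgals9 (85.8 and 68.1) and Calr (587 and 548). C4b of the complement system was at 2.04 and 0.374 FPKM, the nucleoside transporter Slc28a2 at 9.61 and 4.14 and Ly6d at 3.11 and 0.678. Among ribosomal protein genes, 64 of 80 were slightly higher (median 0.051), and Rps27a alone reached a fold of 2, lower (332 and 139 FPKM).

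Several of the 56 genes past a fold of 2 are genes whose reads cannot be placed with certainty. Among them, 24 share at least 97% identity over at least 100 bases with another gene, and for 20 of these the other gene had reads. Gapdh, at 11.3 FPKM in MA9 and 33.2 in MA9/FE, has 49 such copies and was 2.07-fold higher when summed with them, while the 30 glycolysis and hypoxia genes it was listed with had a median of -0.027. The sum for Rps27a and its 7 copies had a ratio of 0.448, and that for Sumo2 (20.1 and 42.0 FPKM alone) and its 6 copies one of 1.33, under a fold of 2. For mt-Nd4l (7.23 and 2.64 FPKM) the sum with its copies gave a ratio of 0.722. Gm47283, annotated on the Y chromosome at 28.3 and 9.42 FPKM while other Y-linked genes were at 0, gave 0.648 with its copy Gm21887. Short genes were called more often: 5.57% of the 323 genes under 1000 bases of exon had a fold of 2, against 0.156% of the 5787 genes of 4000 bases and over. Gm10961 (9 and 3 reads), Gm17622 (1 and 4 reads) and Gm17651 (0 and 1 read) had too few reads for their ratios to be told apart from 1.

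The iron and PBS libraries of macrophages, which share no library with the leukemia cell pair, give the same genes in other cells. Their labels name spleen as the source, whereas the methods of the study describe macrophages of the BM. Across genes the iron differences of leukemia cells and of macrophages of leukemic mice had a correlation of 0.022 over 9859 genes, and with macrophages of mice without leukemia it was 0.0756 over 9685 genes, both as descriptions. In macrophages of leukemic mice 75 of 11028 genes were higher by a fold of 2 (0.68%) and 67 lower (0.608%). Of the 25 genes higher in MA9/FE leukemia cells, 17 were expressed in these macrophages, with 0 higher and 3 lower by a fold of 2 there. Of the 31 lower genes 24 were expressed, with 2 lower (Thbs1 and Stfa3) and 3 higher. The immediate early genes had a median of 0.12 in macrophages of leukemic mice and -0.0041 in macrophages of mice without leukemia, the type I interferon genes 0.087 and -0.34, and the MHC class I genes 0.19 and -0.12. Log2 differences of Fos were 0.48 and 0.40, and those of Tfrc were -0.56 and -0.17. The iron storage, export and heme breakdown list, at 0.01 in leukemia cells, had a median of 0.48 in macrophages of leukemic mice. There 3 members of 12 were higher by a fold of 2, and Lcn2 was lower by a fold of 2 (-1.01). A rise in that pair was not particular to iron genes. Ribosomal protein genes such as Rpl41 (0.65) and Rpl37a (0.75) were also higher, though Rps27l (-0.044) was not. These differences between cell types were not tested.

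**Figure D5:**
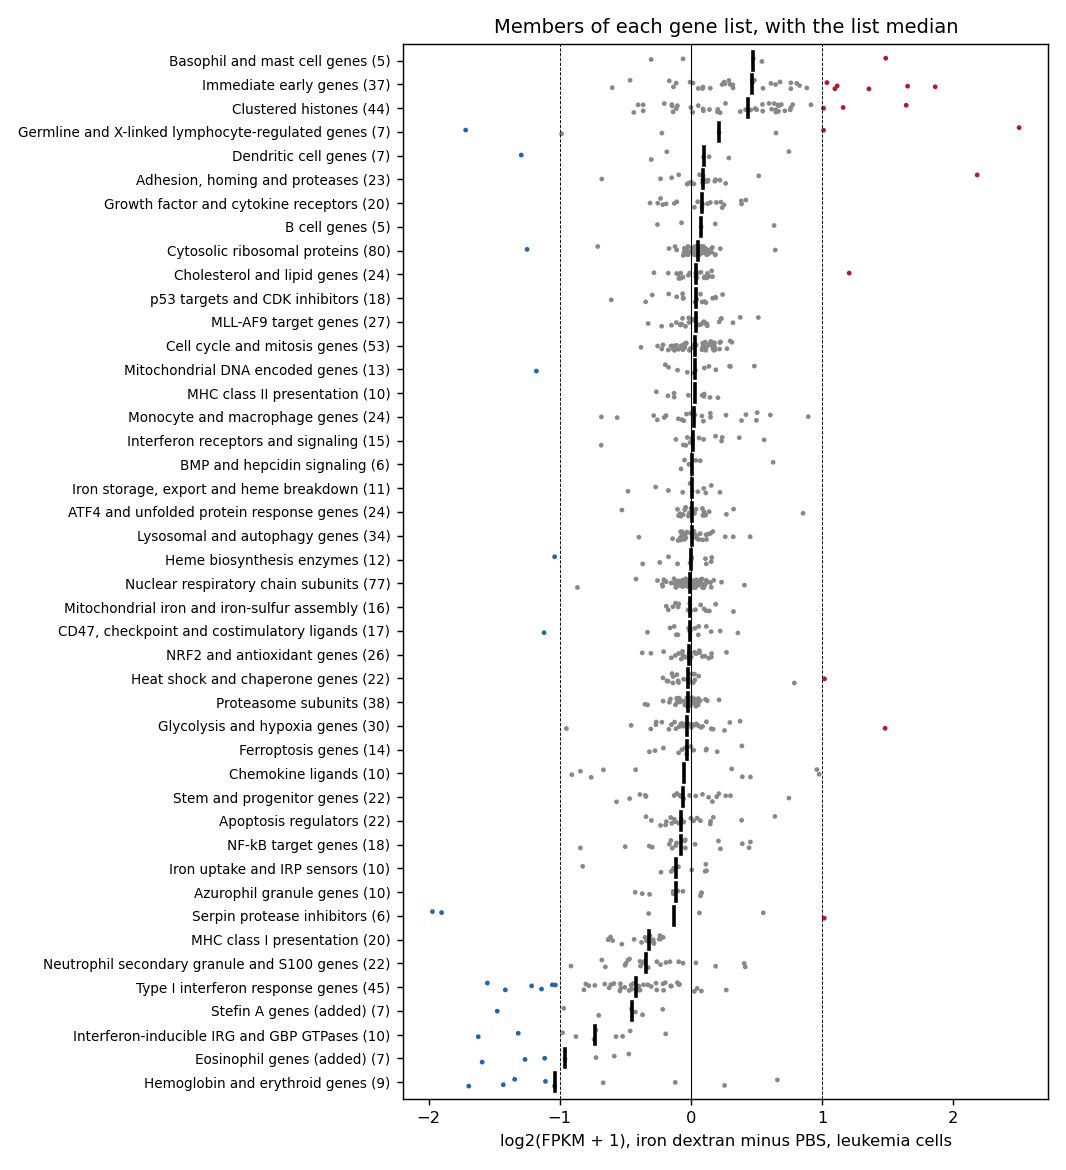
Log2(FPKM + 1) of MA9/FE minus MA9 leukemia cells (x axis) for each member of the gene lists with at least 5 members in the comparison (rows, number of members in parentheses), 1 library each. Points are genes, red and blue where the fold is at least 2, bars are list medians and dashed lines a fold of 2; immediate early and histone lists lie to the right, interferon, MHC class I, neutrophil, eosinophil and erythroid lists to the left, and most lists are centered near 0.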

How the data were processed

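RNA from leukemia cells of 1 MA9 and 1 MA9/FE group was sequenced, 1 library each. Per the labels and the submitters' processing notes, the authors aligned reads to mm10 with Bowtie2 2.2.5 and named RSEM, and deposited FPKM per gene. Multiplied by GENCODE M21 exon length, the deposited FPKM values gave whole reads (tolerance 0.05) for 96.8% of values in MA9 and 96.9% in MA9/FE, from which depth was recovered. How reads that match several genes were shared out is not given in the sources used here. FPKM were scaled by TMM (factor 1.00046) and compared as log2(FPKM + 1), with a pseudocount of 1 and a minimum of 1 FPKM in either library. A fold of at least 2 was called without a test, because each group has 1 library. Ratios carry exact (Clopper-Pearson) 95% intervals, which cover counting error only, and a library at 0 was set to a floor of 3 reads. Of 54532 genes 54495 had an exon length.

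The members and the 45 gene lists were chosen with earlier results of these data known, and 2 lists were added later. Named were the 15 genes with the largest differences in each direction with at least 5 FPKM in the higher library, the 10 with the highest mean FPKM, list members with a fold of 2 or the highest levels, a set of genes of known relevance to leukemia and iron, and genes next to the limit. Other named genes were chosen after their values had been seen. Near-identical copies, promoter motifs and IRE hairpins were searched in GENCODE M21 transcripts and RefSeq GRCm38.p6 windows. Scripts ran in Python 3.11.15 with pandas 2.3.3, numpy 2.4.6 and scipy 1.17.1. The fold call, the scaling and the counting interval were tested on simulated reads that held counting error only. The alternatives were other scalings, pseudocounts, minimums, folds and gene sets. A few genes are not reported here by name, though they count in the totals and medians.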

Additional observations from a re-analysis of the deposited data

Results flagged for a closer look

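Several genes differed in opposite directions with iron in leukemia cells and in macrophages of leukemic mice, by a fold of at least 2 each on the log2(FPKM + 1) scale. With 1 library per group, the difference between the cell types was not tested. Hemoglobin genes were lower with iron in leukemia cells and higher in macrophages of leukemic mice. Log2 differences were -1.43 and 1.05 for Hba-a1, -1.34 and 1.14 for Hbb-bs and -1.69 and 1.56 for Hba-a2. In macrophages of mice without leukemia these genes were also higher with iron (1.18, 1.26 and 0.66). Other erythroid genes went both ways in macrophages of leukemic mice, such as Hbb-bt (0.84) and Ermap (-1.16). Hemoglobin RNA belongs to red cell precursors, and their part in these values was not tested. The basophil protease Prss34 (1.48 and -1.22), Ms4a4a (1.11 and -1.73) and Gm17651 (1.35 and -1.39) were higher in leukemia cells and lower in macrophages of leukemic mice. Gm17651 rested on 0 and 1 read in the leukemia cells.

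Outside the protein-coding genes, 3 noncoding genes with at least 100 reads and 5 FPKM in MA9/FE leukemia cells were higher there by a fold of at least 2. The lincRNA Gm10076 was at 28.7 FPKM in MA9 and 97.9 in MA9/FE (1.74). The processed pseudogene Gm4149 was at 20.2 and 50.9 FPKM (1.30). The processed pseudogene Gm8430, a copy of Rps27a, was at 12.4 and 34.6 FPKM (1.41), whereas Rps27a itself was lower (-1.25).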

How the results depend on the processing

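The numbers of genes past a fold of 2, 25 up and 31 down, moved most with the set of genes, then with the threshold and the pseudocount. All genes of the files gave 180 higher and 195 lower, a fold of at least 1.5 gave 91 and 117, and a pseudocount of 0.1 gave 53 and 72, and each of these settings kept all 25 and 31 genes. A minimum of 5 FPKM left 17 higher and 19 lower. Other scalings and no minimum left both counts as they were, a pseudocount of 0.5 gave 31 and 43, and a counting interval that leaves out 1 gave 20 and 30. Of the 5 higher genes lost there, 3 (Dusp1, Rbp4 and Prss34) have no interval because their reads were not whole. Of 551 recomputed values of 82 genes, 12 moved, all with the pseudocount of 0.1, and 0 changed sign. Of 329 recomputed list medians 4 moved, among them the histones (0.63 over the 13 members with at least 5 FPKM). No paired analysis was possible because each group has 1 library, and no replicate could be left out. Depth limits the genes with few reads, whose ratios have wide intervals.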
